A study of Homo sapiens with 6 samples.

Results

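JUN is a subunit of AP-1, a transcription factor made of pairs of JUN, FOS and ATF proteins that binds the element TGAGTCA and its relatives. The kinase JNK phosphorylates the N-terminal part of JUN, and in fibroblasts AP-1 is known for driving proteases such as collagenase and for its part in matrix turnover. The comparison described here set the phosphosite mutant JUN AA, in which serine 63 and serine 73 are changed to alanine, against the empty vector control (con). It asked what the mutant did to the transcriptome as a whole, with emphasis on functions other than the interferon response and the cytosolic ribosome.

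The cells were MRC5, human fetal lung fibroblasts that the study immortalised with hTERT, and they carried adenovirus with an empty vector, wild-type FLAG-tagged JUN (JUN WT) or JUN AA. Infection lasted 2 h and RNA was taken after 3 days of culture. All 3 conditions share the line and the viral delivery, the endogenous JUN gene was intact in each, and each condition is 1 RNA-seq library, so 2 of the 6 samples of the series enter the comparison and JUN WT is shown beside them. The values are FPKM (fragments scaled for transcript length and for the size of the library) made by the authors. Of 25368 gene symbols, 10311 averaged 1 FPKM or more over the 3 libraries and were described, on the scale log2(FPKM + 1), as JUN AA minus control. With 1 library a condition there is no replicate error, no test was possible, and every difference is a difference between libraries. In the following, 2-fold means a difference of at least 1 on that scale, and folds given beside FPKM are plain ratios of the values.

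JUN itself was higher in both overexpressing libraries. JUN (chr1:59242517-59249720, minus strand, GRCh37) stood at 25.5 FPKM in control, 291 in JUN AA and 4543 in JUN WT. The mutant library therefore held 11.4 times the control level of JUN, well under the level of the wild-type library. The values sum the endogenous transcript and any transgene reads, and they cannot show the mutation.

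The promoters of 4 genes that recur in the results are shown because 2 of them carry a relative of the AP-1 element and the other 2 form a head-to-head pair that was low in JUN AA. They are the 250 bases before the gene start in RefSeq (GRCh38.p14), written 5′ to 3′ on the strand of the gene. JUN (chr1:58784048-58784297, minus strand) encodes the overexpressed factor, SERPINB2 (chr18:63887455-63887704, plus strand) a plasminogen activator inhibitor of the serpin family, and COL4A1 (chr13:110307158-110307407, minus strand) and COL4A2 (chr13:110307034-110307283, plus strand) the chains of basement membrane collagen IV. The promoter of LCE1F, the largest of the rises named below, was also read and held none of the motifs counted below. Capitals mark TGACATCA in JUN, which begins 67 bases before the start, and TGAATCA in SERPINB2, which begins 102 bases before it.
JUN: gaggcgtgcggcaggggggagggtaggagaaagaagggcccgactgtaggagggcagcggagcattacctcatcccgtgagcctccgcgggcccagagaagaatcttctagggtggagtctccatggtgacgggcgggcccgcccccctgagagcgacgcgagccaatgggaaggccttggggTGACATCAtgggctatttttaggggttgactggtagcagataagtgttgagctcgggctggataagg
SERPINB2: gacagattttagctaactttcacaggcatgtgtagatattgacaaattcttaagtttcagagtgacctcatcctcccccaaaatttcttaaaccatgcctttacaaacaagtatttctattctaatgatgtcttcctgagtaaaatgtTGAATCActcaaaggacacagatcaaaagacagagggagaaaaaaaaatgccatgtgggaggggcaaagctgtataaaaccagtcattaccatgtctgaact
COL4A1: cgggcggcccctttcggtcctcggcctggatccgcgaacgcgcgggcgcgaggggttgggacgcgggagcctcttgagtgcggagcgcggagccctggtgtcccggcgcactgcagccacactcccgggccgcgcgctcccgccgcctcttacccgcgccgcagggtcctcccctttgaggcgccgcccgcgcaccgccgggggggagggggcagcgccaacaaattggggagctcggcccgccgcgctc
COL4A2: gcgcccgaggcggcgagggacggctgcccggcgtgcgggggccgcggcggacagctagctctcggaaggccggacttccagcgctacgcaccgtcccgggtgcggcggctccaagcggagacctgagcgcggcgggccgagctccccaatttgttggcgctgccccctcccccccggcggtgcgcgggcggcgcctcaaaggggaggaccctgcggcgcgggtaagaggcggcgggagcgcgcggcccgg

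The COL4A1 and COL4A2 windows share 126 bases, read from opposite strands. Each motif was searched on both strands. The AP-1 heptamer, TGAGTCA or its reverse complement TGACTCA, lay in 4.16% of all 27305 promoters in the table and in 2.39% of the 8370 described genes that matched it. It lay in 10 of 421 matched genes at least 2-fold higher in JUN AA (2.38%) and in 7 of 293 at least 2-fold lower (2.39%), which are shares close to that of the described genes. The octamer TGACGTCA lay in 1.77% of all promoters, in 3.07% of the described genes, in 1.90% of the higher genes and in 3.07% of the lower genes. The letters TGACATCA (or TGATGTCA) and TGAATCA (or TGATTCA), chosen after the JUN and SERPINB2 sequences were seen, lay in 2.45% and 2.60% of all promoters and in 1.21% and 1.41% of the described genes. Of the higher genes 1.19% and 1.43% held them, and of the lower genes 3.07% and 1.71%.

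Of the 10311 genes, 545 were at least 2-fold higher in JUN AA than in control (5.29%) and 389 were at least 2-fold lower (3.77%). The median gene differed by −0.015, with quartiles of −0.33 and 0.33. By direction alone, 5013 genes were higher and 5298 were lower. The balance of the directions depended on scale. The FPKM of the JUN AA library summed to 613185 against 494604 in control, and ribosomal protein genes made up 28.2% of the sum against 18.8%. When both libraries were rescaled to equal sums, which takes 0.31 off each log2 difference of a well expressed gene, 274 genes were 2-fold higher (2.66%) and 733 were 2-fold lower (7.11%), the median became −0.26, and the higher genes went from 58.4% to 27.2% of those past 2-fold. This scaling lowers every JUN AA value, so a fall is larger under it by construction, and groups with higher levels are given on both scales.

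Interferon-stimulated genes and ribosomal protein genes were counted and then set aside, since the description concerns other functions. Of 128 measured interferon-stimulated genes, 77 were 2-fold lower, with a median of −1.21. Of 82 ribosomal protein genes, 35 were 2-fold higher, with a median of 0.76, or 0.45 with equal sums. Outside both groups, 508 of 10101 genes were 2-fold higher and 312 were 2-fold lower, of which 29 and 20 passed 4-fold.

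**Figure D1:**
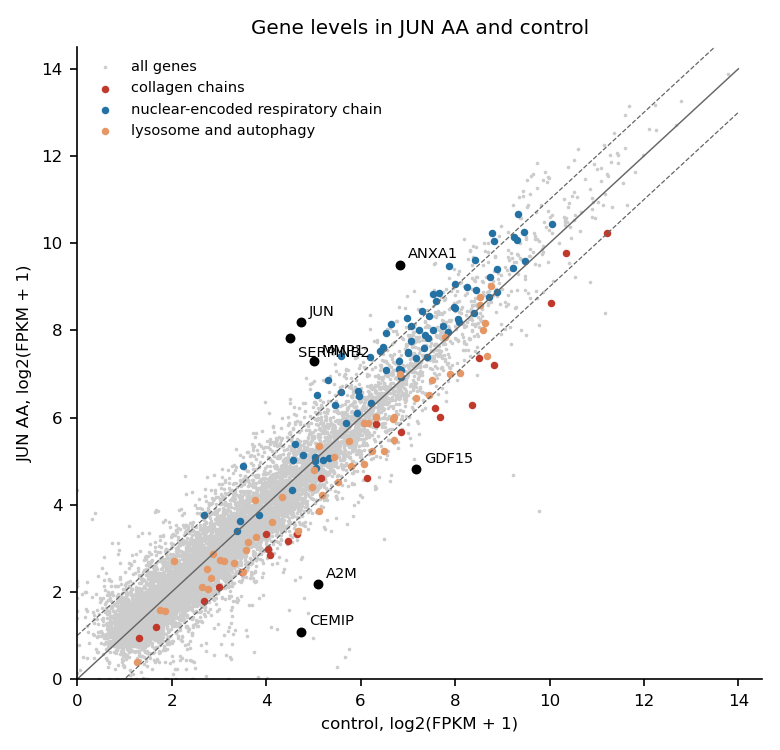
Level of each of 10311 genes in the control library (horizontal) and the JUN AA library (vertical), both as log2(FPKM + 1); the solid line marks equal levels and the dashed lines a 2-fold difference. All 22 collagen chains lie below the solid line, 68 of 76 respiratory chain genes lie above it, and JUN, SERPINB2, MMP1 and ANXA1 stand above the upper dashed line.

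Among the 15 largest rises were a protease inhibitor and a collagenase. SERPINB2 (chr18:61538926-61571122, GRCh37) stood at 21.6 FPKM in control, 226 in JUN AA and 374 in JUN WT, a 10.5-fold rise in the mutant. MMP1, the interstitial collagenase (chr11:102660132-102668891), stood at 31.1, 155 and 414 FPKM in the same order, and MMP12, the macrophage elastase, whose mean is too low for those 15, at 0.478, 5.93 and 2.84. For SERPINB2 and MMP1, both JUN libraries lay above control and the wild-type library was the higher. ANXA1, a phospholipid-binding protein with anti-inflammatory activity, rose from 113 to 727 FPKM (6.45-fold) with 268 in JUN WT, so that the mutant library was the highest of the 3. ANXA2, which binds plasminogen and its activator at the cell surface, was at 835, 1672 and 1716 FPKM.

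The other large rises were of varied function. LCE1F, a late cornified envelope gene of the epidermis, was listed at 0 in control, at 19.1 FPKM in JUN AA and at 12.9 in JUN WT, and its relative LCE3D at 0, 3.42 and 1.09. SRM, the spermidine synthase, rose from 72.9 to 325 FPKM with 241 in JUN WT. CETN2, a centrin of the centriole and of nucleotide excision repair, rose from 27.8 to 118 FPKM with 42.9 in JUN WT. DNAJC12, a J-domain co-chaperone, was at 1.13 FPKM in control, 10.4 in JUN AA and 0.462 in JUN WT, which made it the only one of the 15 largest rises that was below control in JUN WT. PKIB, an inhibitor of protein kinase A, rose from 3.84 to 24.1 FPKM. SVIP, an inhibitor of endoplasmic reticulum-associated degradation, rose from 2.20 to 13.6 FPKM, YAE1D1 from 2.12 to 13.3, and the ribosomal protein paralog RPL22L1 from 14.8 to 80.5.

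KTI12 (0.234 to 11.8 FPKM) shares exonic sequence with TXNDC12, RPL36A-HNRNPH2 (0.300 to 13.1 FPKM) is a readthrough of 2 genes, and VEPH1 (2.28 to 13.5 FPKM) overlaps PTX3. Whether the annotation assigned those reads correctly cannot be told from FPKM, and the 3 are uncertain. VEPH1 was also the only one of the 14 matched genes among the 15 largest rises with the AP-1 heptamer in its promoter, beginning 53 bases before the start. None of 14 matched genes among the 15 largest falls had it.

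CEMIP, a hyaluronan-degrading protein (chr15:81071684-81244117, GRCh37), showed the largest fall outside the interferon list. It stood at 25.6 FPKM in control, 1.13 in JUN AA and 1.57 in JUN WT, 22.7-fold lower in the mutant. A2M, the broad protease inhibitor alpha-2-macroglobulin, fell from 33.1 to 3.53 FPKM with 2.30 in JUN WT. The 2 overexpressing libraries thus lay close together and far below control for both genes. Each shares exonic sequence with a neighbouring annotated gene, MESDC2 for CEMIP and A2M-AS1 for A2M, and the strand used in counting is not given in the sources used here.

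GDF15, a stress-induced member of the TGF-beta superfamily, behaved otherwise. It was at 143 FPKM in control, 27.1 in JUN AA and 103 in JUN WT, 5.28-fold lower in the mutant than in control. HELZ2, a nuclear receptor coactivator, was at 16.3, 1.27 and 31.9 FPKM. It is not on the interferon list used here but is known as interferon-responsive, and its order of libraries, lowest in JUN AA and highest in JUN WT, was that of MX1 (44.4, 0.203 and 116 FPKM). MMP11, stromelysin 3, fell from 23.5 to 3.83 FPKM with 1.94 in JUN WT, and NRTN, the growth factor neurturin, from 9.06 to 1.20 with 0.0436 in JUN WT.

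The rest of the 15 largest falls, outside the collagens, were of varied function. PODN, a leucine-rich proteoglycan, fell from 10.9 to 1.20 FPKM, and IGFBP3, the main carrier of circulating insulin-like growth factors, from 56.3 to 12.4. CD82, a tetraspanin, fell from 97.2 to 22.2 FPKM, MAMDC2 from 8.58 to 1.46, and ITGA11, a collagen-binding integrin subunit of fibroblasts, from 14.2 to 2.83. SERPINE2, the serpin protease nexin 1, fell from 77.6 to 19.5 FPKM, LBH, a transcriptional cofactor of development, from 78.9 to 19.8, and HSPA2, a testis-enriched member of the HSP70 family, from 12.1 to 2.24. In JUN WT each of these 8 genes lay between the other libraries.

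**Figure D2:**
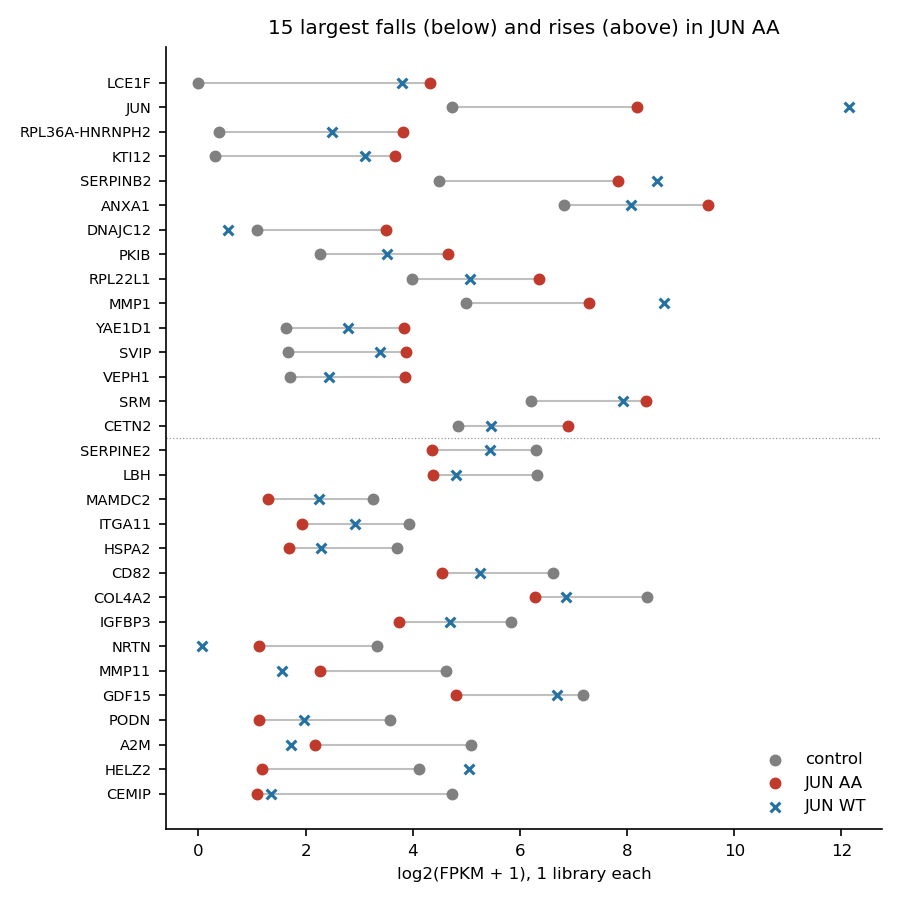
The 15 largest rises and 15 largest falls among genes averaging 5 FPKM or more over control and JUN AA, interferon and ribosomal protein lists set aside; points give log2(FPKM + 1) in the control (grey), JUN AA (red) and JUN WT (blue cross) libraries, 1 library each, and the line joins control to JUN AA. JUN at 291 FPKM in JUN AA lies far below its 4543 in JUN WT, whereas ANXA1 is highest in JUN AA, and HELZ2 is the fall whose JUN WT value lies above control.

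Collagens formed the most uniform group. All 22 measured collagen chains were lower in JUN AA than in control and 13 were 2-fold lower, against 3.77% of all genes, with a median of −1.10 where the median of all genes was −0.015. With equal sums the median was −1.38, and with the trends on transcript length and GC content removed it was −0.91. The same chains had a median of −0.97 in JUN WT against the same control library.

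The 2 chains with the largest falls belong to basement membrane collagen IV. COL4A2 was at 329 FPKM in control, 76.9 in JUN AA and 115 in JUN WT, and COL4A1 at 204, 64.1 and 83.6. Both overexpressing libraries were below control and the mutant was the lowest, while COL4A6, of the same family, had the smallest difference of the 22 chains (−0.37). COL4A2 overlaps the antisense gene COL4A2-AS1, so its value is less certain. COL18A1, the source of endostatin, fell from 69.3 to 23.5 FPKM. The 3 chains of collagen VI, a beaded microfibril around cells, fell together: COL6A1 from 451 to 146 FPKM, COL6A2 from 1041 to 395, and COL6A3 from 190.4 to 73.7. Fibrillar collagens varied: COL1A1 was at 2388, 1208 and 1014 FPKM, COL1A2 at 1309, 871 and 882, and COL3A1 at 362, 163 and 189. The differences of other fibrillar chains were −1.33 (COL5A3), −1.19 (COL5A1), −1.01 (COL11A1), −0.47 (COL5A2) and −0.46 (COL27A1).

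**Figure D3:**
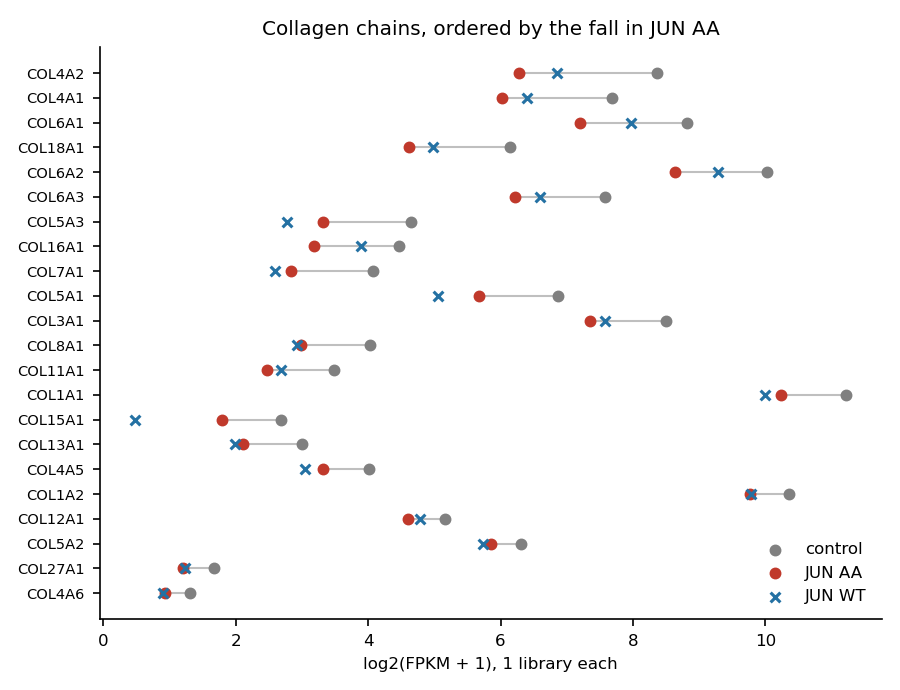
Level of the 22 measured collagen chains as log2(FPKM + 1) in control (grey), JUN AA (red) and JUN WT (blue cross), 1 library each, ordered by the difference of JUN AA from control. For each chain the JUN AA point lies to the left of control, from COL4A2 at −2.08 to COL4A6 at −0.37, and so does the JUN WT cross.

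Proteins that surround collagen were lower as well, with exceptions. Of 30 matrix glycoproteins, 27 were lower and 9 were 2-fold lower, against 3.77% of all genes, with a median of −0.70. IGFBP7 fell from 720.3 to 238 FPKM, CTGF (CCN2), a matricellular protein of fibrosis, from 93.3 to 34.3, and the basement membrane linkers NID1 and NID2 from 24.3 to 8.13 and from 43.5 to 17.3. FN1, fibronectin, was at 531, 262 and 555 FPKM in control, JUN AA and JUN WT, so that the mutant alone was low. POSTN, periostin, was the highest exception, at 56.2 FPKM in control, 91.3 in JUN AA and 42.4 in JUN WT. Of 12 laminin and basement membrane genes, 2 were 2-fold lower, against 3.77% of all genes: AGRN (agrin, 149.5 to 48.3 FPKM) and LAMA5 (11.95 to 5.30).

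The small leucine-rich proteoglycans split. PODN, FMOD (fibromodulin, 7.22 to 0.758 FPKM) and BGN (biglycan, 83.9 to 33.0) fell. DCN, decorin, was at 200.4 FPKM in control, 256 in JUN AA and 149.7 in JUN WT. LUM, lumican, rose from 94.5 to 240.2 FPKM in JUN AA and was at 24.9 in JUN WT, so the 2 overexpressing libraries lay on opposite sides of control.

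Enzymes that modify collagen also moved in both directions. LOXL2, a lysyl oxidase that cross-links collagen, fell from 133 to 40.5 FPKM and was at 118 in JUN WT. LOXL1, which acts mainly on elastin, rose from 91.6 to 193 FPKM with 204 in JUN WT. PCOLCE, the enhancer of procollagen C-proteinase, fell from 224 to 82.7 FPKM, and the hydroxylases LEPRE1 and PLOD1 from 157 to 71.0 and from 231 to 113. Over the 21 enzymes, 15 were lower, 5 were 2-fold lower and 2 were 2-fold higher. Of all genes 3.77% were 2-fold lower and 5.29% were 2-fold higher.

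Among 16 matrix metalloproteinases and their inhibitors, 12 were lower, 4 were 2-fold lower and 2, MMP1 and MMP12, were 2-fold higher. The shares of all genes were 3.77% lower and 5.29% higher. MMP14, the membrane-bound activator of gelatinase, fell from 677 to 256 FPKM with 319 in JUN WT. MMP2, that gelatinase, was at 319, 169 and 437 FPKM in control, JUN AA and JUN WT, and TIMP3, a matrix-bound inhibitor, at 42.8, 18.8 and 41.8. MMP3, stromelysin 1, was at 3.61 FPKM in control, 3.21 in JUN AA and 43.4 in JUN WT. The collagenase MMP1 was thus above control in both libraries, while MMP3 was above it in the wild-type library.

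The plasminogen activation genes had a median of 0.067, or −0.24 with equal sums, with large differences in both directions. PLAU, urokinase, fell from 350.2 to 125 FPKM with 149.9 in JUN WT, while its inhibitor SERPINB2 rose. Of 16 ADAM and ADAMTS proteases, 13 were lower and 4 were 2-fold lower, against 3.77% of all genes. ADAMTS7 fell from 9.61 to 2.53 FPKM and ADAMTS8 from 2.92 to 0.287.

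Contractile genes of the myofibroblast were mostly slightly lower. Of 24 measured, 20 were lower, with a median of −0.29, and 2 were 2-fold lower, against 3.77% of all genes. ACTA2, smooth muscle alpha-actin, was at 874 FPKM in control, 280 in JUN AA and 336 in JUN WT. LMOD1, an actin nucleator, fell from 23.0 to 9.03 FPKM. CNN1 (calponin, 140.1 to 79.0 FPKM) stayed short of 2-fold, and TAGLN (transgelin) was at 3573 and 3196. ACTA2 shares exonic sequence with FAS, so part of its value is uncertain.

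Genes of TGF-beta and Notch signalling were mostly lower as well, and the PDGF receptor genes PDGFRA and PDGFRB were 2-fold lower. For TGF-beta, 14 of 16 genes were lower with a median of −0.53. Only TGFB2 passed 2-fold, from 3.41 to 0.985 FPKM, where 3.77% of all genes were 2-fold lower. With the trends on transcript length and GC content removed the TGF-beta median was −0.25. TGFB1 was at 64.7 and 59.7 FPKM. Of the receptors for PDGF, PDGFRB fell from 60.4 to 15.8 FPKM with 13.8 in JUN WT and PDGFRA from 11.8 to 5.25 with 4.55. They belong to a list of 23 measured FGF, HGF, PDGF and VEGF genes. Of that list 12 were higher and 11 lower, with a median of 0.076, or −0.22 with equal sums. In it 3 genes were 2-fold lower, against 3.77% of all genes, and 1 was 2-fold higher, against 5.29%. In the Notch pathway 9 of 10 genes were lower and 3 were 2-fold lower, against 3.77% of all genes. These 3 were the receptor NOTCH3 (64.7 to 29.7 FPKM), the ligand DLL4 (14.1 to 4.07) and the target HES4 (55.4 to 25.7).

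Among 24 BMP, activin and ID genes, 4 were 2-fold lower, against 3.77% of all genes, and 1 was 2-fold higher, against 5.29%. BMP4 fell from 12.6 to 4.54 FPKM and BMP2 from 9.40 to 2.43. FST, follistatin, which binds activin, was at 17.7 FPKM in control, 5.33 in JUN AA and 24.5 in JUN WT, and GDF5, a BMP of joints, at 8.76, 28.6 and 21.5. Of the growth factors, FGF7, keratinocyte growth factor, was at 10.04, 21.8 and 3.41 FPKM, and LIF, a cytokine that signals through gp130, at 3.04, 8.89 and 10.9.

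AP-1 genes other than JUN did not move as a block. FOSL1, the FOS-family partner FRA1, was at 56.9 FPKM in control, 26.2 in JUN AA and 54.4 in JUN WT. ATF3 was at 7.87, 6.05 and 38.2 FPKM, JUNB at 56.1, 45.1 and 38.2, and JUND at 124, 83.8 and 45.0. ATF7 rose from 3.38 to 8.18 FPKM. BATF2, which fell from 2.01 to 0.171 FPKM, is also on the interferon list. None of 13 MAPK feedback genes passed 2-fold, where 5.29% of all genes were 2-fold higher and 3.77% were 2-fold lower. Of 17 JNK pathway kinases and scaffolds 1, MAP3K10 (6.59 to 18.4 FPKM), was 2-fold higher, which is close to the share of all genes.

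NF-kB subunits and feedback genes were below control in 13 of 15 cases, where 5298 of all 10311 genes were. Their median was −0.42 in JUN AA and 0.61 in JUN WT. NFKB1 (0.37) and TRAF1 (0.27) were higher in JUN AA than in control. NFKBIA, the inhibitor that NF-kB induces, was at 11.8 FPKM in control, 7.63 in JUN AA and 19.6 in JUN WT, and RELB at 10.9, 6.09 and 19.6. ICAM1, an adhesion molecule, was at 4.41, 0.323 and 7.26 FPKM. It was the only 1 of the 15 past 2-fold, against 3.77% of all genes 2-fold lower. Of 12 complement genes 4 were 2-fold lower, against 3.77% of all genes. Of these 4, C1R (40.6 to 9.58 FPKM) and C1S (57.3 to 14.99) are on the interferon list as well. In prostaglandin metabolism, the cyclooxygenase PTGS1 fell from 65.7 to 22.5 FPKM and PTGDS from 82.5 to 23.9, whereas the aldo-keto reductases AKR1C1 (11.2 to 35.8 FPKM) and AKR1C2 (1.13 to 4.83) rose. AKR1C1 and AKR1C2 are near-identical paralogs whose reads could be split between them.

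Lysosomal genes were lower in JUN AA as a broad group. Of 51 lysosome and autophagy genes 42 were lower, 9 were 2-fold lower, against 3.77% of all genes, and none was 2-fold higher, with a median of −0.52, which was −0.80 with equal sums. The same list had a median of 0.15 in JUN WT. All 10 measured cathepsins were lower. CTSD, cathepsin D, was at 406 FPKM in control, 169.8 in JUN AA and 366 in JUN WT, and CTSB at 272, 129 and 302. In contrast the 9 subunits of the proton pump V-ATPase had a median of −0.15, with none past 2-fold. LIPA, a lysosomal lipase listed with the lipid genes, went the other way. It was at 5.11 FPKM in control, 12.5 in JUN AA and 37.5 in JUN WT. LIPA shares exonic sequence with IFIT2 and IFIT3, so its value is uncertain.

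ATF4 targets, genes of amino acid supply and the integrated stress response, were lower in 29 of 32 cases. Only 2 passed 2-fold, CHAC1 (48.0 to 20.7 FPKM) and NUPR1 (571 to 268), where 3.77% of all genes were 2-fold lower. The median of the ATF4 targets was −0.38 in JUN AA and −0.73 in JUN WT. Endoplasmic reticulum chaperones had none past 2-fold and a median of −0.24, against 0.44 in JUN WT. The chaperone CALR, calreticulin, was at 839.9, 475 and 1155 FPKM in control, JUN AA and JUN WT. Cholesterol synthesis genes, with none of 25 past 2-fold and a median of −0.00026, lay at the level of all genes.

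In the p53 and senescence list 24 of 34 genes were lower and 5 were 2-fold lower, against 3.77% of all genes. CDKN1A, the cyclin-dependent kinase inhibitor p21, was at 1634 FPKM in control, 1678 in JUN AA and 1226 in JUN WT, and CDKN2A (p16 and ARF) at 137, 249.6 and 141. Those that fell included the death receptor gene TNFRSF10B (43.9 to 17.0 FPKM), BTG2 (25.3 to 9.92) and GADD45B (26.6 to 10.6). Genes of DNA replication and of mitosis had medians of −0.10 and −0.17, with 1 of 34 and 0 of 24 2-fold higher, against 5.29% of all genes. In each of these lists 1 gene was 2-fold lower, against 3.77% of all genes. CDC20, an activator of the anaphase-promoting complex, was the mitotic gene that was 2-fold lower, from 5.21 to 1.49 FPKM.

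**Figure D4:**
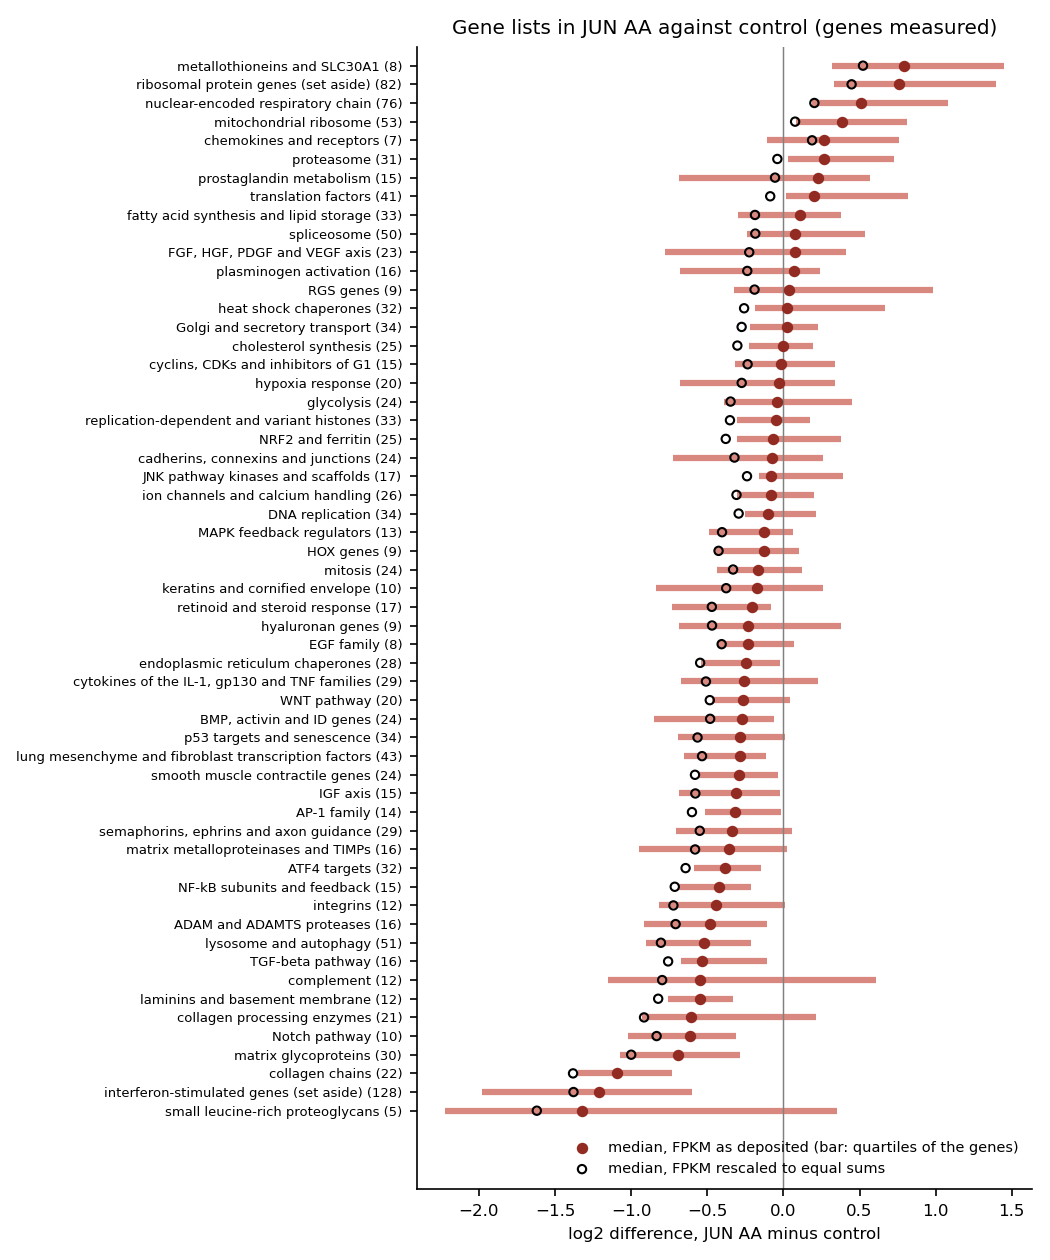
Median log2 difference, JUN AA minus control, of each gene list with at least 5 measured genes, with the number measured in brackets; filled points use FPKM as deposited, bars span the quartiles of the genes in the list, and open circles use FPKM rescaled to equal sums. Small leucine-rich proteoglycans (−1.32), interferon-stimulated genes (−1.21), collagen chains (−1.10) and matrix glycoproteins (−0.70) stand at the low end. At the high end stand metallothioneins with the zinc transporter SLC30A1 (0.79), ribosomal protein genes (0.76) and the respiratory chain (0.51). The proteasome changes from 0.27 to −0.040 with the scale.

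On the side of higher levels, the nuclear-encoded respiratory chain was the group with most genes past 2-fold outside the ribosome. Of 76 genes, 68 were higher and 23 were 2-fold higher, against 5.29% of all genes, with a median of 0.51. With equal sums the median was 0.20 and 9 genes were past 2-fold, against 2.66% of all genes. NDUFB3, of complex I, was at 46.7 FPKM in control, 169.7 in JUN AA and 52.8 in JUN WT, and COX7B, of cytochrome oxidase, at 232, 712 and 212. For both, JUN AA was the highest and the other libraries lay close together. The median of the list in JUN WT was 0.06.

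The complexes differed in degree. Complex V (ATP synthase) had 7 of 15 genes 2-fold higher with a median of 0.80 (0.49 with equal sums), and complex IV had 5 of 11 with a median of 0.55 (0.24). Complex I had 8 of 36 with a median of 0.48 (0.17) and complex III 2 of 9 with 0.51 (0.20). Complex II, which also serves the citric acid cycle, had 0 of 4 past 2-fold, and all 4 were below control, between −0.28 and −0.07, with a median of −0.19 (−0.49).

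Genes of the mitochondrial ribosome were similar, with 43 of 53 higher, 8 of them 2-fold against 5.29% of all genes, and a median of 0.38, which was 0.077 with equal sums. MRPL1 was at 4.96 FPKM in control, 16.5 in JUN AA and 5.90 in JUN WT. Of 41 translation factors 8 were 2-fold higher, among them EIF3E (107 to 294 FPKM) and BTF3 (186 to 484), but the median changed sign, from 0.20 to −0.087 with equal sums. Sm and LSm proteins of the spliceosome, counted together with SNRPB2 and SNRPC as 16 genes, had 5 genes 2-fold higher. The median of the 16 was 0.84, or 0.53 with equal sums. The 18 SF3 and SR splicing factors had none 2-fold higher and a median of −0.022, or −0.32 with equal sums.

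The proteasome was divided by subunit type. Of the 7 alpha subunits of the 20S core 5 were 2-fold higher, against 5.29% of all genes, with a median of 1.14, or 0.83 with equal sums. PSMA2 was at 55.9 FPKM in control, 170.7 in JUN AA and 54.3 in JUN WT, and PSMA4 at 61.3, 178 and 64.9. None of 7 beta subunits passed 2-fold, and their median of 0.27 turned to −0.040 with equal sums. Of the 6 ATPases of the 19S cap PSMC6 alone passed, from 20.9 to 63.7 FPKM. The alpha subunit transcripts had a median GC content of 41.4% and the beta subunit transcripts 52.0%.

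Transcript length and GC content moved with the direction of the difference across all genes. The median transcript length of genes 2-fold higher was 1513 bases, of genes 2-fold lower 3012 and of all genes 3057, and the median GC content was 41.6%, 55.1% and 49.6%. With the genes cut into 10 bins of equal size, 17.8% were 2-fold higher and 2.79% lower in the bin of shortest transcripts, and 1.40% and 3.39% in that of the longest. In the bin of lowest GC content 13.3% were 2-fold higher and 0.499% lower, and in the bin from 52.7% to 56.0% GC 1.10% and 7.19%. Respiratory chain transcripts had a median length of 763 bases, and with both trends removed their median difference was 0.35. The part of length and GC content in these differences was not tested further.

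**Figure D5:**
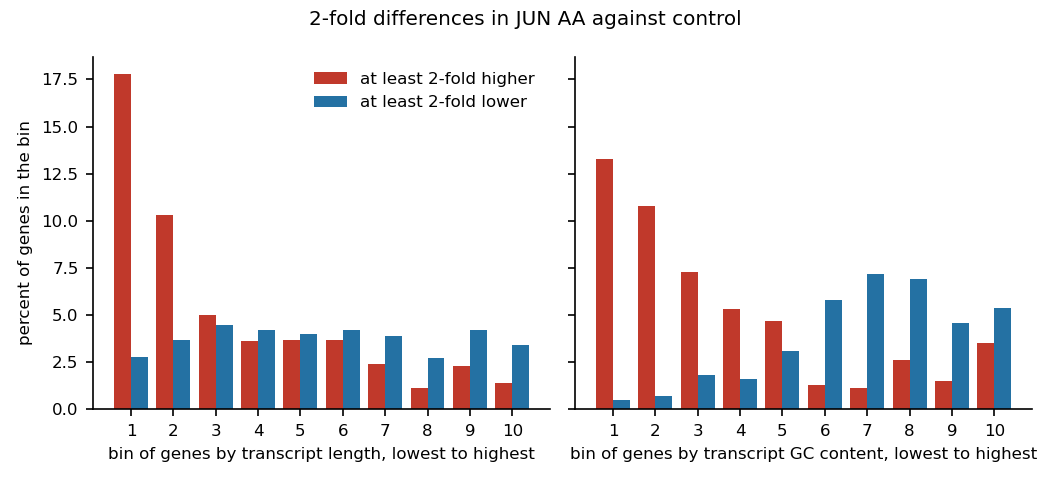
Percent of genes at least 2-fold higher (red) or lower (blue) in JUN AA than in control, in 10 bins of equal size of the 10023 genes with an annotated transcript, by transcript length (left) and transcript GC content (right). The share of higher genes is 17.8% in the bin of shortest transcripts and 13.3% in that of lowest GC content, and 1.40% and 3.49% in the last bins.

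Metallothioneins, small cysteine-rich proteins that bind zinc and copper, were higher in 6 of 7 cases and 3 were 2-fold higher, against 5.29% of all genes, with a median of 0.80, or 0.57 with equal sums. SLC30A1, a zinc transporter on the same list, was at 5.58 FPKM in control and 3.88 in JUN AA. MT2A was at 2809 FPKM in control, 4179 in JUN AA and 3055 in JUN WT, and MT1X at 101, 254 and 93.3. MT1F was at 1.86, 9.24 and 0.222 FPKM. They are near-identical paralogs, so the division of reads among them is uncertain. Of redox genes, TXN, thioredoxin, rose from 318 to 899.8 FPKM with 342 in JUN WT. HMOX1, heme oxygenase 1, was at 82.6, 118 and 34.3 FPKM, FTH1, the ferritin heavy chain, at 3206, 1865 and 3196, and NQO1 at 90.0, 57.2 and 82.9. Over the 25 genes of the NRF2 and ferritin list the median was −0.071.

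Chaperones and metabolic enzymes gave single large differences. HSPB6, a small heat shock protein of muscle, rose from 334 to 980.1 FPKM with 469 in JUN WT, and the mitochondrial co-chaperonin HSPE1 from 80.8 to 219 with 74.5. CCT8, a subunit of the cytosolic chaperonin, rose from 36.0 to 116 FPKM, and the other 6 measured CCT subunits did not pass 2-fold. LDHB, the heart-type lactate dehydrogenase subunit, rose from 138 to 475 FPKM with 249 in JUN WT, and PDK1, which inhibits pyruvate dehydrogenase, from 2.39 to 8.72, while the glycolysis list as a whole had a median of −0.043. FABP5, an epidermal fatty acid-binding protein, was at 15.8 FPKM in control, 68.0 in JUN AA and 69.6 in JUN WT.

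Markers of the labelled cell type were present in each library. Of 14 fibroblast markers none was at 0 in all 3 libraries and 1 averaged under 1 FPKM. The 14 summed to 7111 FPKM in control, 5131 in JUN AA and 6245 in JUN WT. Of the 13 described, 9 were lower in JUN AA and 4 were 2-fold lower, against 3.77% of all genes, and 1 was 2-fold higher, against 5.29%. All 9 endothelial and all 8 muscle markers had means under 1 FPKM. Of 12 epithelial markers 6 were at 0 in every library, and the sum of 56.4, 19.99 and 22.1 FPKM came mainly from KRT18 and KRT8. Of 10 leukocyte markers 9 had means under 1 FPKM, and CD68, a lysosomal glycoprotein, was at 32.6, 31.1 and 85.7.

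Besides the genes already marked, the following named genes share exonic sequence with an annotated neighbour and are uncertain for that reason: C1R, CDKN2A, COL18A1, CTGF, FTH1, HSPE1, IGFBP7, JUNB, KRT8, KRT18, LAMA5, LOXL1, LOXL2, MX1, NDUFB3, NID2, PCOLCE, PLAU, TAGLN, TGFB1, TNFRSF10B and MAMDC2.

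The JUN WT library was compared with the same control library, so the comparisons are not independent. Of all 10311 genes, 714 were 2-fold higher and 350 were 2-fold lower in JUN WT than in control. Of the 545 genes 2-fold higher in JUN AA, 110 were also 2-fold higher in JUN WT and 7 were 2-fold lower, and their median difference in JUN WT was 0.37. Of the 389 genes 2-fold lower in JUN AA, 112 were also 2-fold lower in JUN WT and 34 were 2-fold higher, and their median there was −0.56. SERPINB2, MMP1, CEMIP and A2M were thus displaced from control in the same direction in both libraries. GDF15, FN1, CTSD, LUM and HELZ2 were displaced in JUN AA with JUN WT near control or beyond it on the other side. JUN differed 15.6-fold between the overexpressing libraries, so the mutation and the amount of JUN cannot be told apart in these values.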

How the data were processed

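RNA-seq of MRC5 fibroblasts was described from a deposited table in which the authors gave FPKM per gene for control, JUN WT and JUN AA, 1 library each. Per the labels and processing notes, reads were aligned to hg19 with HISAT2 2.1.0 and quantified with StringTie 2.1.1. The annotation, strand setting and read numbers are not given in the sources used here. Among 2706 genes between 0 and 0.5 FPKM in control and JUN AA, no ratio recurred (at most 2.00% in one bin), so no depth could be derived and it is unknown. FPKM are relative within a library, so a rise of abundant genes lowers the others.

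Genes averaging 1 FPKM or more over the 3 libraries were kept, and differences were taken after adding a pseudocount of 1. No test was run. Named genes are JUN, the 15 largest rises and falls averaging 5 FPKM or more over control and JUN AA, and in each of 55 function lists up to 6 genes past 2-fold, largest first, plus preset anchor genes. Other genes in the text were chosen after their values were seen, as were the splits by complex. The members and lists were chosen with earlier results of these data known. Symbols were matched to GENCODE v44lift37 (GRCh37) for 97.2% of the genes, and the canonical transcript gave length and GC content. Calculations used Python 3.11.15 with pandas 2.3.3 and were tested on simulated data. The table of JNK inhibitor samples was not used here, and 26 symbols that had turned into dates are not named. Some genes are not reported here.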

Additional observations from a re-analysis of the deposited data

How the results depend on the processing

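Each condition is 1 library, so no alternative can show how far a second culture would differ, and depth sets no stated limit. No paired analysis was possible because the result comes from no test. The count of 545 genes at least 2-fold higher was 274 with equal sums and 302 with length and GC trends removed, and the count of 389 lower genes was 733 with equal sums and 629 with a pseudocount of 0.1. With sums equal over genes other than ribosomal protein genes, the counts were 409 and 521. Among list medians of at least 0.25 in size, those that changed sign were of the proteasome (−0.040 with equal sums), chemokines (−0.053 with the trends removed) and cytokines (0.0547 among genes averaging 5 FPKM or more). Of 85 named genes 2-fold higher, 64 were still past 2-fold with equal sums and 60 with the trends removed. All 85 kept their direction under both, which for equal sums was fixed in advance, since that scaling shifts a difference by 0.31 at most. All 112 named genes 2-fold lower were still past it with equal sums, by construction, since that scaling lowers every JUN AA value. With the trends removed, 80 of the 109 lower genes with an annotated transcript were still past it.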

Other observations

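Guidance and junction genes gave further values. Of 29 semaphorin, ephrin and plexin genes 20 were lower in JUN AA and 5 were 2-fold lower, against 3.77% of all genes. PLXNB2, a semaphorin receptor, was at 145 FPKM in control, 59.5 in JUN AA and 63.9 in JUN WT, the receptor tyrosine kinase EPHA2 at 24.4, 9.40 and 18.2, and SEMA7A at 43.3, 17.4 and 34.1. JUP, plakoglobin of cell junctions, was at 44.4, 16.6 and 10.3 FPKM, and F11R, a junctional adhesion molecule, at 1.00, 4.50 and 2.72.

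Of 43 transcription factors of lung mesenchyme and fibroblasts 35 were lower, with a median of −0.29, and 5 were 2-fold lower, against 3.77% of all genes. TEAD3, a partner of YAP, was at 36.2 FPKM in control, 16.8 in JUN AA and 19.8 in JUN WT, FOXL1 at 16.8, 7.61 and 8.86, and TBX5 at 5.94, 2.40 and 3.44. PRRX2, a mesenchymal homeobox gene, was at 96.9, 107 and 11.8 FPKM, so that JUN AA lay near control and JUN WT far below.

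Host genes of small nucleolar RNAs, a list made after their values were seen, differed among themselves. GAS5 was at 111 FPKM in control, 370 in JUN AA and 190.5 in JUN WT, and SNHG5 at 597, 1887 and 522. Of the 17 measured, 3 were 2-fold higher, against 5.29% of all genes, and 1, SNHG12 (4.38 to 1.58 FPKM), was 2-fold lower, against 3.77%. The median of the 17 was 0.20 and turned to −0.084 with equal sums. GAS5, SNHG12 and TBX5 share exonic sequence with annotated neighbours.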
